A study of Oryctolagus cuniculus with 54 samples.

Results

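The 2 genes described here, ENSOCUG00000023599 and ENSOCUG00000037631, were chosen from 29587 Ensembl rabbit genes measured in the developing lung because their expression was lower in term pups on postnatal day 4 than in fetuses on day 28, whereas in pups delivered prematurely on day 28 it was not lower on postnatal day 7 than on the day of delivery. The values of those 4 groups chose the genes and are therefore given as a description, with no test. The condition is not a narrow one and does not by itself single out these 2 genes. Of 15733 genes with enough reads to be tested, 49.8% had a lower mean in the term pups than in the fetuses, and 24.9% also met the second condition. The deposited table holds identifiers only, and neither identifier occurs in the text of the paper or of its additional file. No table used here links the identifiers to symbols, so their products, genome positions and sequences are not given. ENSOCUG00000023599 ranked 448 of 29587 genes by mean count and is called the higher-count gene below. ENSOCUG00000037631 ranked 9297 and is called the lower-count gene.

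All animals were New Zealand White rabbits. Fetuses were taken by C-section on gestational days 20, 23, 25, 27, 28 and 29 (F20, F23, F25, F27, F28 and F29; 4, 4, 3, 3, 3 and 3 animals) and their lungs were removed at once. Term pups were born naturally on day 31, stayed with their mothers in room air, and were sampled at birth (T31, 6 animals) or 4, 6 and 11 days later (T35, 3 animals; T37, 4 animals; T42, 3 animals). Preterm pups were delivered by C-section on day 28, kept in incubators in 21% oxygen and fed milk replacer by tube, and were sampled 1 h, 3 days and 7 days later (P0, P3 and P7, 3 animals each). P0, P3 and P7 therefore have the same age from conception as F28, T31 and T35. Dams in the C-section groups had received medetomidine, ketamine, xylazine and pentothal, and pups of a time point came from different dams. The tissue was right lung homogenate, except on days 20 and 23, when the study's methods state that the whole lung was used. Preterm and term pups differed in route of delivery, feeding and rearing as well as in maturity, and these cannot be told apart.

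In the last part of gestation the lung changes from branching tubes into thin-walled sacs, its epithelium separates into gas-exchanging and surfactant-producing cells, and fluid in the airspaces is replaced by air at birth. Premature birth places a lung of the saccular phase in air before that sequence has finished. Messenger RNA was counted by sequencing 1 fragment near the 3′ end of each transcript, and levels are given as CPM, the count of a gene scaled to a common library total. The 54 libraries held 5771693 to 8073755 counts with a median of 7090332, so that 3 counts, used here as the detection limit, were worth about 0.37 to 0.52 CPM. Because whole tissue was measured, fewer cells of a type that makes a transcript and less of the transcript per cell cannot be told apart. No marker gene of the lung or of any cell type could be looked up by name, and the labelled tissue was not checked in that way.

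Libraries were sequenced in 3 runs, and both genes depended on the run. 6 animals had a library in more than 1 run. In F28 animal 2, the higher-count gene was at 329 CPM in run 1, 639 CPM in run 2 and 711 CPM in run 3. In F28 animal 7 it was at 216 CPM in run 1 and 453 CPM in run 3, and in F28 animal 9 it was at 367 CPM in run 1 and 654 CPM in run 2. The term animals differed between runs in the same direction as the fetuses. T35 animal 6 had 81.3, 183 and 206 CPM in runs 1, 2 and 3, and T35 animal 11 had 103, 256 and 269 CPM. F25 animal 13 had 23.0 CPM in run 1 and 52.6 CPM in run 3. The run 1 library was thus the lowest in every repeated animal, by 1.78 to 2.49 times against run 2 (4 animals) and 2.10 to 2.62 times against run 3 (5 animals).

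**Figure D1:**
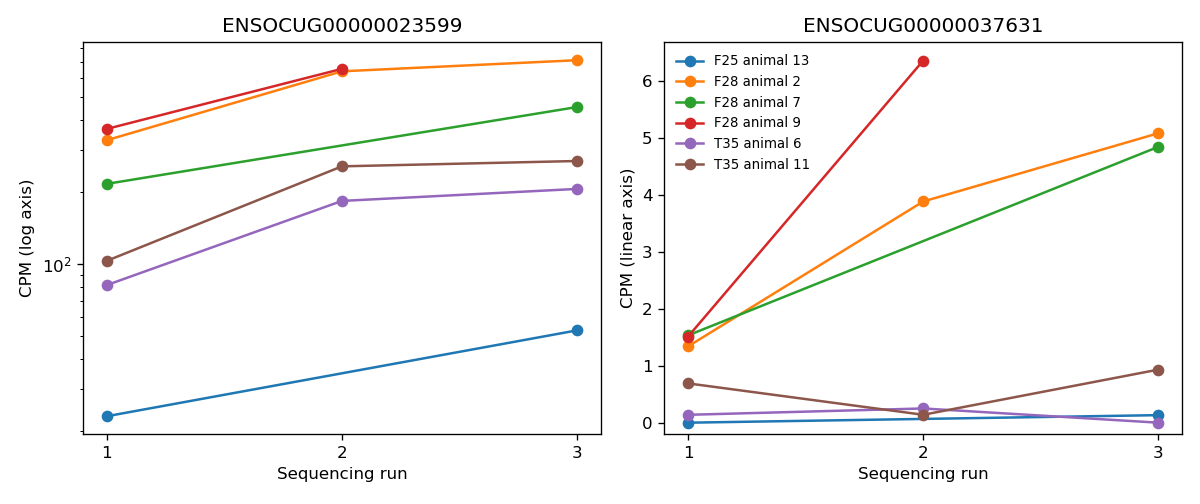
CPM of ENSOCUG00000023599 (left, log axis) and ENSOCUG00000037631 (right, linear axis) in the 6 animals sequenced in more than 1 run, plotted by sequencing run, with a line joining the libraries of 1 animal. All 6 lines of the left panel start lowest in run 1, and in the right panel the 3 F28 animals do so as well, while the F25 animal and the T35 animals stay below 1 CPM in every run.

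The lower-count gene showed the run difference in the F28 animals, whereas T35 animal 11 was lower in run 2 than in run 1. In F28 animal 2 it had 8, 26 and 36 counts in runs 1, 2 and 3, which were 1.34, 3.89 and 5.09 CPM. F28 animal 7 had 1.54 CPM in run 1 and 4.85 CPM in run 3, and F28 animal 9 had 1.51 CPM in run 1 and 6.37 CPM in run 2. In T35 animal 6 the 3 libraries held 1, 2 and 0 counts, and in T35 animal 11 they held 5, 1 and 7 counts. F25 animal 13 had 0 counts in run 1 and 1 count in run 3. Over the 15 libraries of these animals, with the animal as a block, edgeR's quasi-likelihood test gave a log2 difference between run 2 and run 1 of 1.22 (SE 0.075, adjusted p = 1.443e-10) for the higher-count gene and 1.48 (SE 0.49, adjusted p = 0.0153) for the lower-count gene. Between run 3 and run 1 the log2 differences were 1.42 (SE 0.071, adjusted p = 3.024e-12) and 1.86 (SE 0.48, adjusted p = 0.00222). Here and below a gene was called where it changed by more than 2 times with a Benjamini-Hochberg adjusted p, taken over all genes tested, no greater than 0.05. By this rule 21% of 14360 genes were called between run 2 and run 1 and 28.6% between run 3 and run 1, with 7.81% and 11.4% higher in the later run, as both genes were, and 13.2% and 17.2% lower. Several groups were sequenced in 1 run only. F20, F23, T37 and T42 were in run 3, F27 and F29 in run 1, and P0 and P3 in run 2.

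The higher-count gene was detected at 1 CPM or more in all 54 libraries. It was lowest in the youngest fetuses, with 10.1, 10.5, 10.9 and 7.16 CPM in the F20 animals. The F23 animals had 37.7, 18.9, 13.7 and 22.4 CPM, and each of them was above every F20 animal. At F25 the values were 104 and 23.8 CPM in run 1 for animals 3 and 18 and, as above, 52.6 CPM in run 3 for animal 13. The F27 animals had 161, 99.3 and 226 CPM and the F29 animals 295, 333 and 332 CPM, all in run 1, so that each F29 value exceeded each F27 value within the same run.

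At natural birth the animals differed widely in the higher-count gene. The 3 T31 animals of run 1 had 98.6, 229 and 447 CPM and the 3 of run 3 had 379, 769 and 1285 CPM. The T35 animals had 16.8 CPM (animal 1, run 1), 183 CPM and 256 CPM (animals 6 and 11, run 2). The T37 animals had 141, 376, 34.3 and 156 CPM, and the T42 animals 367, 439 and 465 CPM. Within run 3, the lowest T31 animal at 379 CPM was just above the highest T37 animal at 376 CPM, and T37 and T42 overlapped only through that T37 animal. In the preterm pups the gene was high at every time. The P0 animals had 915, 545 and 735 CPM, the P3 animals 600, 525 and 529 CPM, and the P7 animals 794 CPM (run 3), 1144 CPM and 1061 CPM (run 2).

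**Figure D2:**
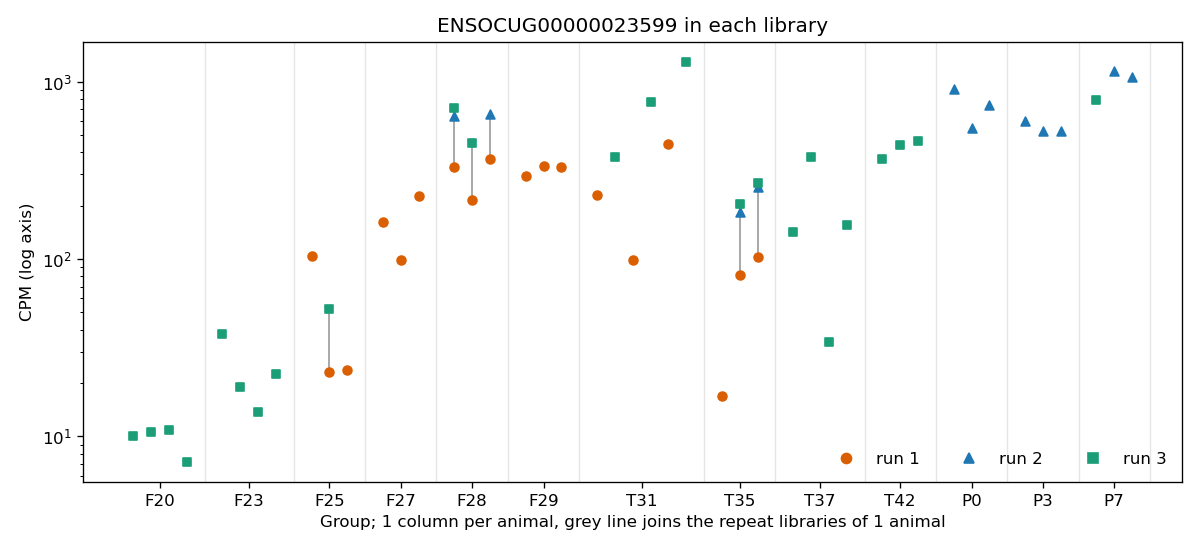
CPM of ENSOCUG00000023599 in each of the 54 libraries on a log axis, with 1 column per animal, symbols for the run and grey lines joining the repeat libraries of 1 animal. The F20 animals lie between 7.16 and 10.9 CPM, the T31 animals spread from 98.6 to 1285 CPM, and all 9 preterm animals lie between 525 and 1144 CPM.

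The lower-count gene followed another course. It reached 1 CPM in 30 of 54 libraries and was at 0 counts in 5. Its highest values were in the youngest fetuses, with 22.2, 20.5, 38.8 and 24.0 CPM (143 to 284 counts) in the F20 animals. At F23 it was at 18.8 CPM (136 counts) in animal 40, whereas animals 6, 22 and 23 had 1, 2 and 1 counts, or 0.15, 0.31 and 0.15 CPM, which is below the detection limit. Of the F25 animals only animal 18 was above the limit, at 3.03 CPM. The F27 animals had 0, 2.44 and 1.92 CPM, and the F29 animals, at 0.48, 0.76 and 0.45 CPM, were at or barely above the limit with 3, 5 and 3 counts.

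In term pups the lower-count gene was close to the detection limit at birth and on day 4. The T31 animals had 0.59, 1.06 and 0.15 CPM in run 1 and 0, 0.14 and 0.99 CPM in run 3. All 3 T35 animals had 0 to 2 counts in the libraries used for comparisons, and over their 7 libraries the highest count was 7. The T37 animals had 0.41, 2.95, 10.8 and 9.29 CPM, and the T42 animals 0.13, 2.61 and 3.62 CPM. Within run 3, 1 T37 animal and 1 T42 animal were in the range of the 3 T31 animals and the others were above it. With T31 animals of run 1 scaled to run 2, as described further on, T31 reached 2.96 CPM and overlapped T37 and T42 more widely. The preterm pups had 4.59, 6.20 and 6.78 CPM at P0, 6.60, 1.34 and 7.52 CPM at P3, and 6.30, 6.75 and 11.2 CPM at P7. P3 animal 2, with 10 counts, was the lowest of the 9.

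**Figure D3:**
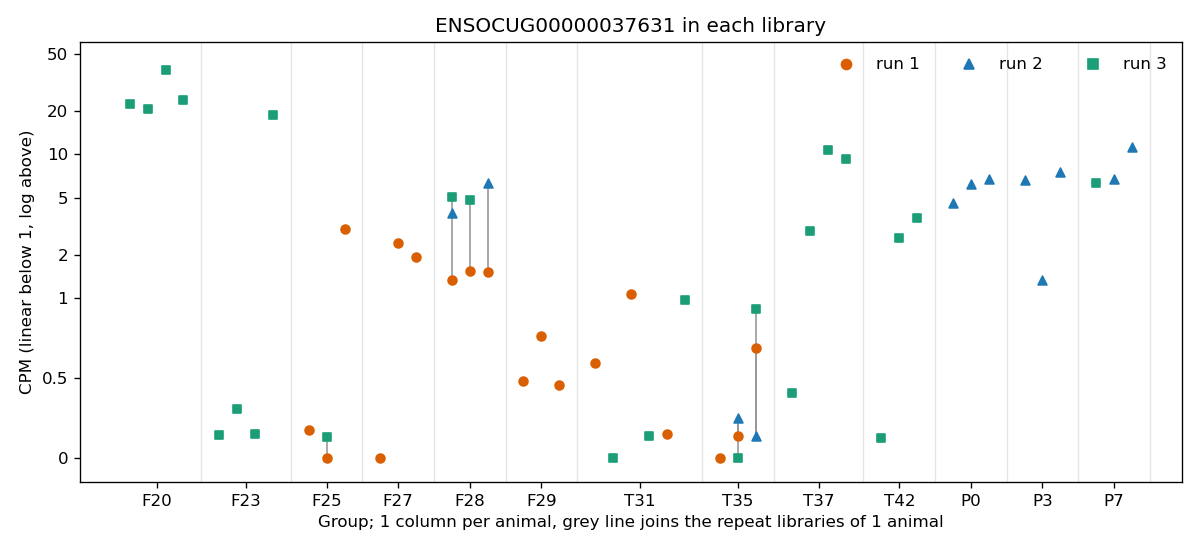
CPM of ENSOCUG00000037631 in each of the 54 libraries on an axis that is linear below 1 and logarithmic above, with 1 column per animal, symbols for the run and grey lines joining repeat libraries. The 4 F20 animals lie between 20.5 and 38.8 CPM, 1 F23 animal lies at 18.8 CPM apart from the other 3, and the T35 libraries stay below 1 CPM while the 9 preterm animals lie between 1.34 and 11.2 CPM.

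The groups that chose the genes can be set side by side within run 2, which holds 2 F28, 2 T35, 3 P0, 3 P3 and 2 P7 animals. For the higher-count gene, the F28 animals at 639 and 654 CPM lay above the T35 animals at 183 and 256 CPM. Summed over animals, the F28 to T35 ratio was 2.98 (exact 95% interval 2.86 to 3.10), P0 was 1.14 times F28, P3 was 0.75 times P0, and P7 was 1.5 times P0 and 5.06 times T35. For the lower-count gene, F28 held 73 counts and T35 held 3, a ratio of 26.2 with an interval of 8.63 to 130. P0 was 1.13 times F28 (0.84 to 1.52), P7 was 1.56 times P0 (1.21 to 2.01), and P7 with 134 counts was 46.1 times T35 (15.4 to 226). These intervals cover counting error only, not the differences between animals, and even that only in part, since several reads can stem from 1 molecule and no molecular identifiers were counted. The choice had set T35 below F28 and P7 not below P0, so an interval that leaves out 1 is not a test.

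**Figure D4:**
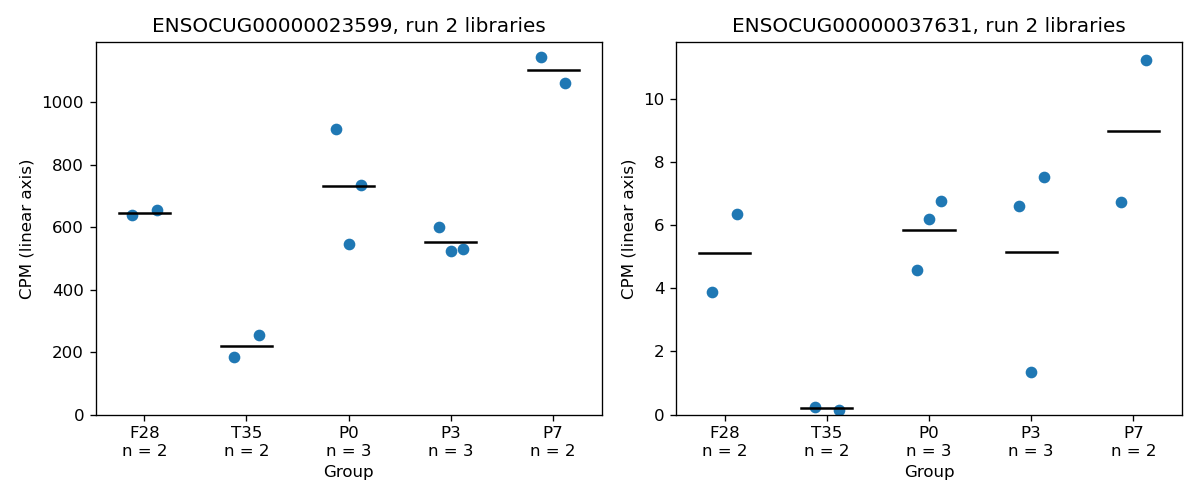
CPM of ENSOCUG00000023599 (left) and ENSOCUG00000037631 (right) in the animals sequenced in run 2, on linear axes that start at 0, with 1 point per animal and a bar at the group mean. Both T35 points lie below all points of F28, P0, P3 and P7 in each panel, and the P7 points of the left panel lie above those of every other group.

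F28 and T35 animals were also sequenced in the other runs. Run 1 held all 3 animals of each group, and run 3 held F28 animals 2 and 7 and T35 animals 6 and 11, where run 2 held F28 animals 2 and 9 and the same T35 animals. In run 1, with 3 animals in each group, the F28 to T35 ratio was 4.6 for the higher-count gene. For the lower-count gene it was 5.33 (2.16 to 15.8), from 27 and 6 counts. In run 3, with 2 animals in each group, the ratios were 2.46 and 10.9 (5.01 to 28.0), the latter from 70 and 7 counts. F28 was above T35 for both genes in each run, but the runs repeat the same animals and the choice had set that direction. The size of the difference in the lower-count gene was poorly determined because T35 was at so few counts. The differences that follow compare groups that chose the genes. A difference that is large against its SE is therefore not a test here. In the fit over 45 animals with 1 library each, the log2 difference of T35 from F28 was −1.88 (SE 0.59) for the higher-count gene and −5.31 (SE 1.64) for the lower-count gene, that of P7 from P0 was 0.69 (SE 0.59) and 0.55 (SE 1.04), and that of P0 from F28 was 0.10 (SE 0.59) and 0.11 (SE 1.07). Leaving out T35 animal 1, whose only library was in run 1 and which had the lowest value of the higher-count gene in its group, gave −1.43 and −4.55 for T35 against F28. Leaving out T35 animal 6 gave −6.31 for the lower-count gene, and its values ran from −6.31 to −4.55 over the 6 fits that left out 1 animal. With the run 1 libraries in place of the later ones, the difference of T35 from F28 in the lower-count gene was −2.18, that of P0 from F28 turned to −0.82 in the higher-count gene and was 2.10 in the lower-count gene.

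Comparisons between groups that the choice had not used were tested in the same fit, which held 13 groups and a term for the run. In that fit only F28, T35 and P7, which helped to choose the genes, held run 2 together with another run. Values that chose the genes thus entered the run term. Both genes passed the test between birth and day 6 at term, and in opposite directions. The higher-count gene fell from 535 ± 432 CPM (SD, n = 6) at T31 to 177 ± 143 CPM (SD, n = 4) at T37, with a log2 difference of −2.30 (SE 0.51, edgeR adjusted p = 0.00152), 4.91 times lower. The lower-count gene rose from 0.49 ± 0.46 CPM to 5.86 ± 4.98 CPM, with a log2 difference of 3.89 (SE 1.20, edgeR adjusted p = 0.0227), 14.8 times higher. These CPM means pool runs 1 and 3 at T31 with no run correction, whereas the log2 differences include the run term. With runs scaled to run 2 as described further on, the higher-count gene averaged 654 CPM at T31 and 154 CPM at T37. The lower-count gene averaged 0.99 and 4.51 CPM on that scale. The T31 animals held only 0 to 8 counts of the lower-count gene, and its run term was uncertain, as given below. The size of its rise was therefore poorly determined. In this comparison 5.8% of 15733 genes were called, 1.92% as lower and 3.88% as higher. The call of the higher-count gene held in each of 10 fits that left out 1 T31 or T37 animal and in run 3 alone, where the log2 difference was −2.35 (adjusted p = 0.0041). The call of the lower-count gene was less secure. It was lost without T31 animal 4 or 11 or T37 animal 46 or 47, with adjusted p-values up to 0.0761, and in run 3 alone the log2 difference of 3.65 had an adjusted p of 0.121.

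No other comparison gave a call in that fit. From F20 to F23 the higher-count gene had a log2 difference of 1.28 (SE 0.54, edgeR adjusted p = 0.214) and the lower-count gene one of −2.36 (SE 0.87, adjusted p = 0.136), where 1.92% of genes were called, 1.63% higher and 0.292% lower. Both groups were in run 3. Without F23 animal 40 the difference of the lower-count gene was −6.92 with an adjusted p of 6.026e-05. With animal 40 kept, limma-voom called the gene at −5.02 (adjusted p = 0.0309) and at −5.04 with all libraries and the animal as a random block (adjusted p = 0.00288), so the call depended on the method as well as on that animal. From F25 to F27 the differences were 1.86 (SE 0.58, adjusted p = 0.202) and 0.27 (SE 1.36, adjusted p = 0.982), with 0.102% of genes called, each of them higher. Without F25 animal 3, the highest of its group, the difference of the higher-count gene was 3.17 with an adjusted p of 0.0223. From F29 to T31 they were −0.23 (SE 0.54, adjusted p = 0.900) and 0.28 (SE 1.55, adjusted p = 0.966), with 0.362% of genes called (0.273% higher and 0.089% lower), and the sign of both turned when the run was left out of the model. From T37 to T42 they were 1.30 (SE 0.52, adjusted p = 0.388) and −1.39 (SE 1.02, adjusted p = 0.761), with 0.0636% of genes called, each of them higher.

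The contrast of late term pups (T37 and T42) with late fetuses (F27 and F29) crosses runs 1 and 3 and rests on the run term. Its log2 difference was −1.35 (SE 0.60, edgeR adjusted p = 0.163) for the higher-count gene and 2.86 (SE 1.60, adjusted p = 0.300) for the lower-count gene, with 4.35% of genes called, 2.75% higher and 1.61% lower. Without the run term the higher-count gene turned to 0.42 and the lower-count gene passed the test at 2.07 (adjusted p = 0.0448). With all 54 libraries and the animal as a random block in limma-voom, the higher-count gene passed at −1.32 (adjusted p = 0.0346) and the lower-count gene was at 0.84 (adjusted p = 0.697). P3 pups and T31 pups have the same age from conception, but P3 was in run 2 and T31 was not. Their log2 difference was −1.53 (SE 0.72, edgeR adjusted p = 0.415) for the higher-count gene and 3.35 (SE 1.60, adjusted p = 0.428) for the lower-count gene, with 0.153% of genes called, 0.127% higher and 0.0254% lower. The run term behind these differences was uncertain. Run 2 was linked to the other runs in the fit only through F28, T35 and P7, groups that chose the genes. The difference of P3 from T31 is therefore not independent of the choice. For the higher-count gene, run 2 exceeded run 1 by 2.69 on the log2 scale in the fit over 45 animals but by 1.22 in the animals sequenced in both. For the lower-count gene, run 2 minus run 1 was 0.16 in that fit and 1.48 in the same animals, and run 3 minus run 1 was −0.57 in that fit and 1.86 in the same animals, so that its sign differed. When all 54 libraries were used with the animal as a random block, the difference of P3 from T31 was −0.33 for the higher-count gene and 2.72 for the lower-count gene (adjusted p = 0.300). For the lower-count gene it was 3.33 without the run term, with an adjusted p of 0.0442.

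**Figure D5:**
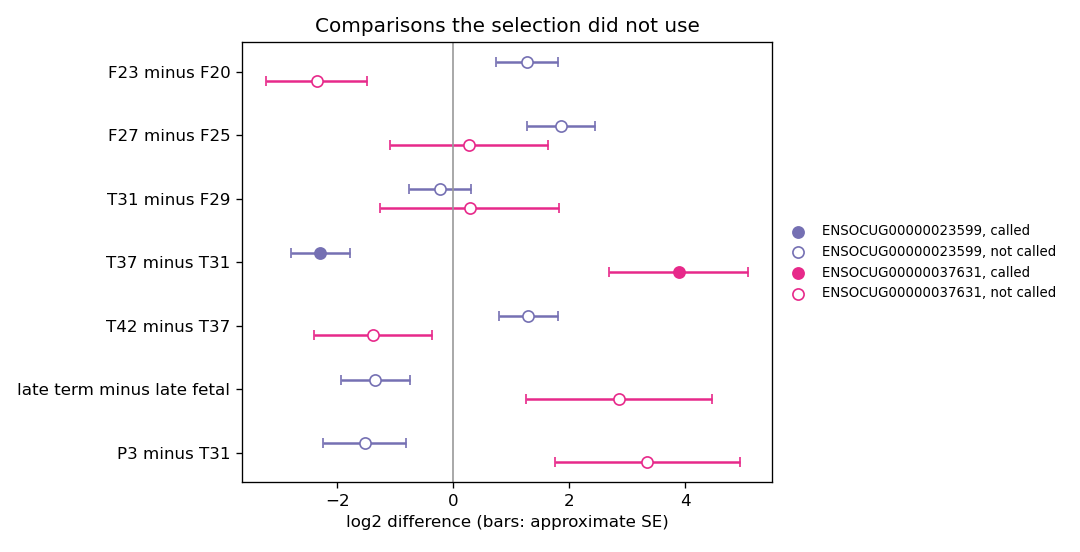
Log2 differences of ENSOCUG00000023599 and ENSOCUG00000037631 in the 7 tested comparisons from the fit over 45 animals, with bars of 1 approximate SE and filled points for calls. The only filled points are those of T37 minus T31, at −2.30 and 3.89, and the bars of the lower-count gene are wider than those of the higher-count gene in every comparison.

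Levels of all groups were put in order after scaling runs 1 and 3 to run 2 by the difference measured in the same animals. For the higher-count gene the order of means ran from P7 at 965 ± 241 CPM through F29, P0, T31, F28, P3 and F27 to T42 at 369 ± 44.1 CPM, then T35 at 159 ± 110 CPM, T37 at 154 ± 125 CPM and F25 at 114 ± 111 CPM, and last F23 at 20.2 ± 8.97 CPM and F20 at 8.43 ± 1.49 CPM (SD, n as above). Neighbours in this order overlapped except T42 with T35, F25 with F23, and F23 with F20. The T35, T37 and F25 animals thus formed a stretch in which neighbouring groups did not differ beyond their spread. For the lower-count gene F20 stood first at 20.3 ± 6.45 CPM and overlapped no neighbour. P7, P0, P3, F28 and T37 followed between 7.61 and 4.51 CPM, and T31 and T35 came last at 0.99 ± 1.14 and 0.13 ± 0.13 CPM, each overlapping the next in order. The F23 mean of 3.72 ± 7.13 CPM came from a single animal. T35 was last of 13 groups for the lower-count gene, also when the run was removed with the fitted run term instead. The choice of the genes had set T35 below F28 and P7 not below P0. The places of these groups in the orders therefore depend in part on it. For the higher-count gene the order depended on how the run was removed. T35 was followed by T37, F25, F23 and F20 here, but only by F23 and F20 with the fitted term, which put F29 and T31 above P7.

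The 2 genes were alike in the values that chose them and not over the whole series. Pearson's r between them over 13 group means of log2 CPM was −0.32 with the run removed and 0.03 without its removal. The gene nearest to the higher-count gene over these 13 group means was ENSOCUG00000012196, with r = 0.972 (0.976 without run removal). Its group means went from 0.039 CPM at F20 to 3.38 CPM at F28, 1.39 CPM at T35 and 4.10 CPM at P0, and were 2.90 CPM at P7, so it was lower at P7 than at P0. Next came ENSOCUG00000001092, ENSOCUG00000024954, ENSOCUG00000000676 and ENSOCUG00000022985, with r from 0.953 to 0.961. Without run removal r was 0.762, 0.946, 0.955 and 0.734 in that order. ENSOCUG00000001092 reached 0.895 CPM at P7 and no more than 0.393 CPM in any other group, which is near or below the detection limit. ENSOCUG00000000676 moved within 78.3 to 102 CPM, so that a high r went with a narrow range of levels. The gene nearest to the lower-count gene was ENSOCUG00000034604, at r = 0.863 (0.855 without run removal), with group means of 0.26 to 1.06 CPM. The other four, ENSOCUG00000004455, ENSOCUG00000027687, ENSOCUG00000021504 and ENSOCUG00000006810, had r from 0.806 to 0.855, which was −0.287 to 0.181 without run removal, and their likeness rests on that step. The points of these correlations are group means from the same libraries and are described without a test.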

How the data were processed

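RNA from 45 rabbit lungs was sequenced as 54 QuantSeq 3′ libraries. The authors trimmed reads, aligned them with STAR to OryCun2.0 and counted them with HTSeq on the Ensembl annotation; versions are not given in the sources used here, nor whether reads of unannotated 3′ UTRs that they counted with a custom script are included. The deposited table holds raw counts per gene as whole numbers, with 0 rows naming no gene and 0 columns without a sample. Depth was 5771693 to 8073755 counts.

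Groups, animals and runs were taken from the labels. The members and lists were chosen with earlier results of these data known. Genes named were the 2 members and the 5 genes with the highest Pearson r to each over the 13 group means of log2 CPM (prior count 2, run removed with removeBatchEffect). ENSOCUG00000029101 and ENSOCUG00000029107 were named after their values were seen. A RefSeq table of assembly mOryCun1.1 matched 0 identifiers, so lists of hypoxia genes and cell type markers could not be applied.

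Counts were tested with edgeR 4.0.16 (R 4.3.3), quasi-likelihood with TMM, on genes of at least 0.5 CPM in at least 3 libraries (15733 genes), with 1 library per animal (run 2 first, then 3, then 1) and a run term. The run was tested over 15 libraries of 6 animals, with the animal as a block (14360 genes). The SE is the log2 difference divided by the root of the F statistic. Ratios within a run carry exact 95% counting intervals. Alternatives used limma 3.58.1, DESeq2 1.42.0, RLE size factors, no filter, no run term, the run 1 library first, single runs, and each animal left out (45 fits). Chosen after seeing the data were limma-voom on all libraries with the animal as a random block, and scaling to run 2. Only the edgeR test of T37 against T31 was tried on simulated data, drawn from its own fitted model. The other procedures were not simulated. Python 3.11.15 with matplotlib 3.10.9 drew the figures. P0 and P7 share animal numbers 1, 3 and 4, but pups were killed for lung harvest, so these are different animals. Their deviations correlated at 0.067, 0.215 and 0.011. Without a comparison to unequal numbers this cannot show whether equal numbers mark related pups, and they were not treated as pairs.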

Additional observations from a re-analysis of the deposited data

Results flagged for a closer look

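In ENSOCUG00000037631, F23 animal 40 had 18.8 CPM while the other 3 F23 animals had 0.15 to 0.31 CPM, a gap that exceeded Dixon's 95% critical value for a group of 4. Dixon's test was applied to 8 groups of values, and chance flags about 1 group in 20. The value of 18.8 CPM lies just below the F20 range of 20.5 to 38.8 CPM. In ENSOCUG00000023599, the same animal had 22.4 CPM, within the 13.7 to 37.7 CPM of the other F23 animals. What sets the animal apart was not tested.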

How the results depend on the processing

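The fall of ENSOCUG00000023599 from T31 to T37 was called under every alternative run, including −1.71 without a run term, and ranged from −3.0 to −1.78 with 1 animal left out. The rise of ENSOCUG00000037631 was not called with limma-voom (3.52, adjusted p = 0.0829), with the run 1 library first (3.69, 0.0546), in run 3 alone (3.65, 0.121) or with all libraries and the animal as a random block (2.79, 0.0736), and ranged from 3.44 to 5.38 with 1 animal left out (adjusted p 0.0127 to 0.0761). The cause was not tested.

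Without a run term, T31 minus F29 turned to 0.96 (ENSOCUG00000023599) and −0.070 (ENSOCUG00000037631), late term minus late fetal turned to 0.42 and, in ENSOCUG00000037631, passed at 2.07 (adjusted p = 0.0448), and P3 minus T31 of ENSOCUG00000037631 passed at 3.33 (0.0442). T31 minus F29 of ENSOCUG00000037631 turned to −0.27 with limma-voom and −1.15 with all libraries. F23 minus F20 of ENSOCUG00000037631 passed at −5.02 with limma-voom (0.0309) and −5.04 with all libraries (0.00288), and late term minus late fetal of ENSOCUG00000023599 passed at −1.32 with all libraries (0.0346), where ENSOCUG00000037631 was at 0.84. P0 minus F28 of ENSOCUG00000023599 turned to −0.82 and that of ENSOCUG00000037631 moved from 0.11 to 2.10 with the run 1 library first.

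With 1 animal left out, the ranges for ENSOCUG00000023599 were 0.95 to 1.45 for F23 minus F20, 1.46 to 3.17 for F27 minus F25 (called without F25 animal 3), −0.69 to 0.11 for T31 minus F29, 0.95 to 2.00 for T42 minus T37, −1.70 to −1.18 for late term minus late fetal (called without T37 animal 27, adjusted p = 0.0463), −1.74 to −1.10 for P3 minus T31, and, not tested, −0.13 to 0.29 for P0 minus F28. For ENSOCUG00000037631 they were −6.92 to −1.96, −0.33 to 3.03, −0.053 to 0.67, −2.10 to −0.83, 2.50 to 3.16, 2.96 to 4.76 and −0.20 to 0.31.

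Genes called over the table moved with the setting: without a run term 3 (F27 minus F25, otherwise 16), 706 (T31 minus F29, otherwise 57), 1 (T42 minus T37, otherwise 10), 3992 (late term minus late fetal, otherwise 685) and 469 (P3 minus T31, otherwise 24), with DESeq2 88, 158 and 29 for the first 3 and 83 for P3 minus T31. With all libraries T31 minus F29 gave 153, T42 minus T37 20, late term minus late fetal 1081 and P3 minus T31 157. With the run 1 library first T31 minus F29 gave 37 and P3 minus T31 55, without a filter F27 minus F25 gave 29, in run 1 alone it gave 4 and T31 minus F29 6, and in run 3 alone T42 minus T37 gave 5. With 1 animal left out, F27 minus F25 gave 3 to 50, T31 minus F29 0 to 342, P3 minus T31 8 to 45 and T42 minus T37 3 to 7.

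With a replicate block on the animal numbers shared by P0 and P7, P7 minus P0 was 0.43 for ENSOCUG00000023599 and 0.41 for ENSOCUG00000037631, against 0.69 and 0.55 without it. Whether equal numbers mark related pups is not known, and the contrast has no call. Depth limits ENSOCUG00000037631 most, with F29 and most T31, T35, F23 and F25 libraries near or below 3 counts.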

Other observations

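A small number of genes set single F23 animals apart. Of 15733 genes passing the filter, 7 (0.0445%) were at 10 CPM or more in 1 F23 animal and under 0.5 CPM in the other 3. Animal 23 was the high one in 3 of them, animal 22 in 1 and animal 40 in 3, so this was not particular to animal 40. The genes high in animal 40 were ENSOCUG00000037631, ENSOCUG00000029101 and ENSOCUG00000029107, chosen after their values were seen. ENSOCUG00000029101 was at 10 CPM or more in some animals and not in others of most groups, with 3 of 4 animals at F20, 1 of 4 at F23 and T37, 2 of 3 at P0 and P7, 3 of 3 at T35 and P3, and 0 of 6 at T31. It therefore did not follow ENSOCUG00000037631, which was near 0 in all 3 T35 animals.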
